A study of Mus musculus with 6 samples.

Results

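Embryoid bodies, the floating aggregates in which embryonic stem cells begin to differentiate, were compared between day 4 and day 2 of culture. The comparison used 4 of the 6 arrays of the series, 1 each for Noggin at day 4, mock at day 4, Noggin at day 2 and mock at day 2, and each day 4 array was paired with the day 2 array of the same treatment. All cells were of the J1 line of mouse embryonic stem cells. Noggin, a secreted protein that binds bone morphogenetic proteins (BMPs) and blocks them, was given at 150 ng/ml for 3 days before the aggregates were formed in medium without leukaemia inhibitory factor, and was withdrawn on the second day of aggregate culture. The mock group is described in the series' design as not treated. The treatment label of the mock arrays carries the same wording as that of the Noggin arrays, and the mock groups were taken from their source names. The labels give the series' aim as finding how Noggin may bring about cardiac differentiation. Each group was a single array, and nothing states that the arrays came from separate cultures. The spread behind any p-value is that between the day changes of the 2 treatments, drawn toward a common value estimated from all compared probes. It does not measure the spread between cultures.

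In the mouse embryo, the epiblast forms the primitive streak under Wnt, Nodal and BMP signals, and cells that pass through the streak become mesoderm or definitive endoderm. Wnt and Nodal signals turn on the streak transcription factors, Nodal induces its own inhibitors, and the anterior streak gives rise to organiser and endoderm cells that secrete antagonists of Nodal, BMP and Wnt. Embryoid bodies pass through a comparable order of gene expression without the embryo's layout. In RNA from whole aggregates, more cells of a type and more RNA per cell cannot be told apart.

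Values are the authors' log2 intensities, which have a median of 7.37 on every array, and a change is the log2 value at day 4 minus that at day 2. Of 27495 probes, the 14268 brighter than the median probe in 2 or more of the 4 arrays were compared, and they represent 8418 genes with 1 symbol. The unprocessed intensities had medians of 159.8 with Noggin and 152 with mock at day 4, against 176.55 and 165 at day 2, over lowest values of 91.4 to 101.4. No background was subtracted, so levels below or near 7.37 lie on a floor and the folds of genes that start or end there are compressed. Each gene is described by its brightest probe.

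Krt8, Sp5, Lhx1, Spink1 and Cer1 had the largest average increases shared by both treatments, and Wt1, Lefty1 and Rhox5 the largest shared decreases. In both treatments 207 probes, 1.45% of those compared, were at least 2-fold higher at day 4, and 85 probes, 0.596%, were at least 2-fold lower. By brightest probe and with no filter, 154 of 13165 genes were higher (1.17%) and 65 lower (0.494%). With Noggin, 485 probes (3.4%) were higher and 352 (2.47%) lower by at least 2-fold. With mock, 281 (1.97%) were higher and 119 (0.834%) lower. The shared probes thus made up 42.7% of those higher with Noggin and 73.7% of those higher with mock, and 24.1% of those lower with Noggin and 71.4% of those lower with mock. Across the 14268 probes, which are not independent replicates and come from arrays scaled together, the changes with Noggin and with mock correlated with a Pearson r of 0.738 and a Spearman rho of 0.661. The change was larger with Noggin for 144 of the 207 shared higher probes and for 74 of the 85 shared lower ones. Of the 207, 48 lay above the array median only at day 4 and so were compared only through the day on which they were high. No p-value is given below for such a gene. Where a shared gene had several compared probes, all of them pointed the same way for 33 of 33 higher genes and 9 of 10 lower genes, the exception being Msh6, a DNA mismatch repair gene named here because it was the exception.

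The paired test on the deposited values called none of these probes. In limma with treatment as a block, fitted to the 4 arrays with 1 residual degree of freedom, 0 of 14268 probes were higher (0.0%) and 0 lower (0.0%) at an adjusted p under 0.05, the smallest adjusted p was 0.0963, and 4047 probes had an unadjusted p under 0.05. The same values taken from the array intensities before rounding to 2 decimals, a setting added after the data were seen, gave 663 higher (4.59%) and 483 lower (3.34%) of 14446 probes. Among them were 203 of the 207 shared higher probes and 81 of the 85 shared lower ones. The shared probes were picked for large changes of the same sign on these same 4 arrays. Their passing therefore follows largely from that choice and is no further support. The adjusted p of both fits is given below as "rounded" and "unrounded", and no gene is said to have passed the planned test.

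**Figure D1:**
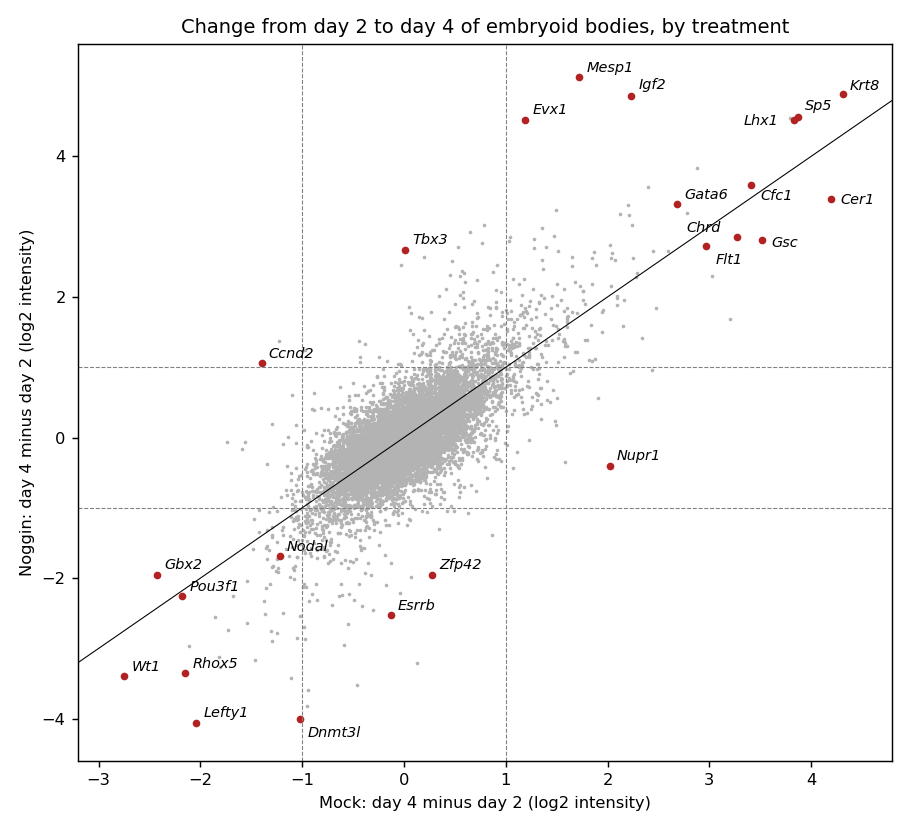
Change of 14268 probes between day 2 and day 4, with the mock change on the horizontal axis and the Noggin change on the vertical axis, both as log2 intensity at day 4 minus day 2. Grey points are probes, red points are named genes, dashed lines mark 2-fold and the solid line marks equal change. Krt8, Sp5, Lhx1 and Cer1 lie near the line at the upper right, while Mesp1 and Evx1 lie far above it and Esrrb, Zfp42 and Dnmt3l far below it.

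Primitive streak regulators, most of them transcription factors, were among the largest increases. Lhx1, Cer1, Sp5 and Krt8 were given beforehand as markers of this comparison of the same 4 arrays. Their levels and p-values therefore describe the comparison and give no independent support. Sp5, a zinc-finger gene that is a direct target of Wnt signalling, stood at 12.30 with Noggin and 11.39 with mock at day 4, against 7.74 and 7.52 at day 2. Both day 4 arrays were far above both day 2 arrays, and the changes of 4.56 and 3.87 correspond to 23.6-fold and 14.6-fold (mean 4.22, SE 0.212, limma adjusted p = 0.0963 rounded and 0.00997 unrounded). In stem cells at day 0 Sp5 had stood at 9.57 with Noggin and 9.47 with mock, so its level was lowest at day 2 of the 3 days. Lhx1, a LIM homeobox gene of the streak, organiser and lateral mesoderm, stood at 11.55 and 10.79 at day 4, against 7.03 and 6.96 at day 2, which lay below the array median. Its second probe showed changes of 3.83 with Noggin and 2.88 with mock, beside 4.52 and 3.83 at the brighter one.

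Gsc, a homeobox gene of the anterior streak and organiser, stood at 10.23 with Noggin and 10.83 with mock at day 4, against 7.42 and 7.31 at day 2. Its change was larger with mock, 3.52 against 2.81 with Noggin (mean 3.16, SE 0.217, limma adjusted p = 0.0963 rounded and 0.0145 unrounded). Eomes, a T-box gene needed for mesoderm migration and endoderm formation, was already above the median at day 2, with 8.66 and 8.67, and stood at 11.32 with Noggin and 10.18 with mock at day 4. Its 2 compared probes were both higher in both treatments, by 2.66 and 1.51 at the brighter and by 1.58 and 0.82 at the dimmer. The SE, which limma draws partly from all compared probes, was larger for Eomes than for Gsc. Eomes had a mean of 2.08, an SE of 0.33 and a limma adjusted p of 0.1 rounded and 0.0312 unrounded.

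Mesp1 and Evx1 were higher in both treatments but to very different degrees. Mesp1, a basic helix-loop-helix gene of nascent and cardiac mesoderm, stood at 11.98 with Noggin and 8.59 with mock at day 4, against 6.85 and 6.87 at day 2, so the changes were 35-fold and 3.29-fold. Evx1, a homeobox gene of the posterior streak, stood at 11.29 and 8.18 at day 4, against 6.77 and 6.99 at day 2. Tbx6, a T-box gene of paraxial mesoderm, stood at 9.26 with Noggin and 7.54 with mock at day 4, against 7.40 and 7.49 at day 2, and the mock change of 0.05 left it near the floor. Limma gave Tbx6 an adjusted p of 0.313 rounded and 0.211 unrounded. With 1 array per group the difference between the treatments' changes had no residual to be tested against, here and below.

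Fgf8, a ligand of streak cells, stood at 9.28 and 9.40 at day 4, against 8.49 and 8.53 at day 2, so its changes of 0.79 and 0.87 were close to each other and below 2-fold (limma adjusted p = 0.0963 rounded and 0.0314 unrounded). Of 22 streak genes listed, 19 had a probe, 12 were above the filter and 4 of those only through the day 4 arrays. Over the 19, 6 were at least 2-fold higher in both treatments and 0 lower, where 1.17% of all 13165 genes with a probe were higher in both and 0.494% lower. This list and those below were chosen with earlier results of these data known. Their counts therefore describe the members and give no independent support. The median change of the 19 was 0.41 with Noggin and 0.10 with mock, beside 0.01 and -0.02 over all genes with a probe. Other members lay near the floor, with Cdx1, Cdx4, Msgn1, Nkx1-2 and Mesp2 between 6.89 and 7.41 on all 4 arrays. Probes for the genes encoding brachyury and Mixl1 were not analysed here.

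The sequence just before the start site is shown for the streak genes Sp5, Mesp1 and Lhx1 and for Cer1, described below, because Sp5 and Mesp1 differ from Lhx1 and Cer1 there in a Wnt-type motif. Each is the 250 bases upstream of the start in the RefSeq table of build GRCm38.p6, 5′ to 3′ on the gene's strand, with capitals marking matches to CTTTG followed by AA, AT, TA or TT on either strand, the heptamers that TCF and LEF factors, the nuclear partners of beta-catenin, prefer. The windows are chr2:70474673-70474922 on the plus strand for Sp5, chr7:79793591-79793840 on the minus strand for Mesp1, chr11:84525535-84525784 on the minus strand for Lhx1 and chr4:82885152-82885401 on the minus strand for Cer1.
Sp5: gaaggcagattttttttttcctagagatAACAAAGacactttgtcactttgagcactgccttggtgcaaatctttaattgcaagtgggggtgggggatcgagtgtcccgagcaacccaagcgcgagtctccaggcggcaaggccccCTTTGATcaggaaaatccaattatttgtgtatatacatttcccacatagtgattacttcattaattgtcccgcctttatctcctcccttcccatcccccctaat
Mesp1: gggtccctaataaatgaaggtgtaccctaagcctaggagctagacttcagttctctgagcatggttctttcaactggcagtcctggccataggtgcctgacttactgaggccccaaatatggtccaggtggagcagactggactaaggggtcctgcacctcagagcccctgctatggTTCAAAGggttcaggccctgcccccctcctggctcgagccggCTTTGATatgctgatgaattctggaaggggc
Lhx1: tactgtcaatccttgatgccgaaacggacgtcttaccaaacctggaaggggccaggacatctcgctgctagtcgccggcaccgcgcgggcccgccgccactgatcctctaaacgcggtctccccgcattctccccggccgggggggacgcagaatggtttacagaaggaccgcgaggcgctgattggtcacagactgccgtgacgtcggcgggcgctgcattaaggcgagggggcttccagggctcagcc
Cer1: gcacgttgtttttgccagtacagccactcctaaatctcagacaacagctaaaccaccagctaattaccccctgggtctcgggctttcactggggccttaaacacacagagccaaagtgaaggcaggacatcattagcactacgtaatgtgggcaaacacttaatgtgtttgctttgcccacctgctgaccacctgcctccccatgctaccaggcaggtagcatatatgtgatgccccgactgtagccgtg
The Sp5 window holds 2 such heptamers, which begin 222 and 104 bases before the start, and the Mesp1 window holds 2, which begin 73 and 31 bases before it. The Lhx1 and Cer1 windows hold 0. Of all 32851 windows in the table, 14.8% hold at least 1. A match describes these letters only, and its absence says nothing about more distant sites. Other streak genes are not shown, so these windows describe no split among streak genes.

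**Figure D2:**
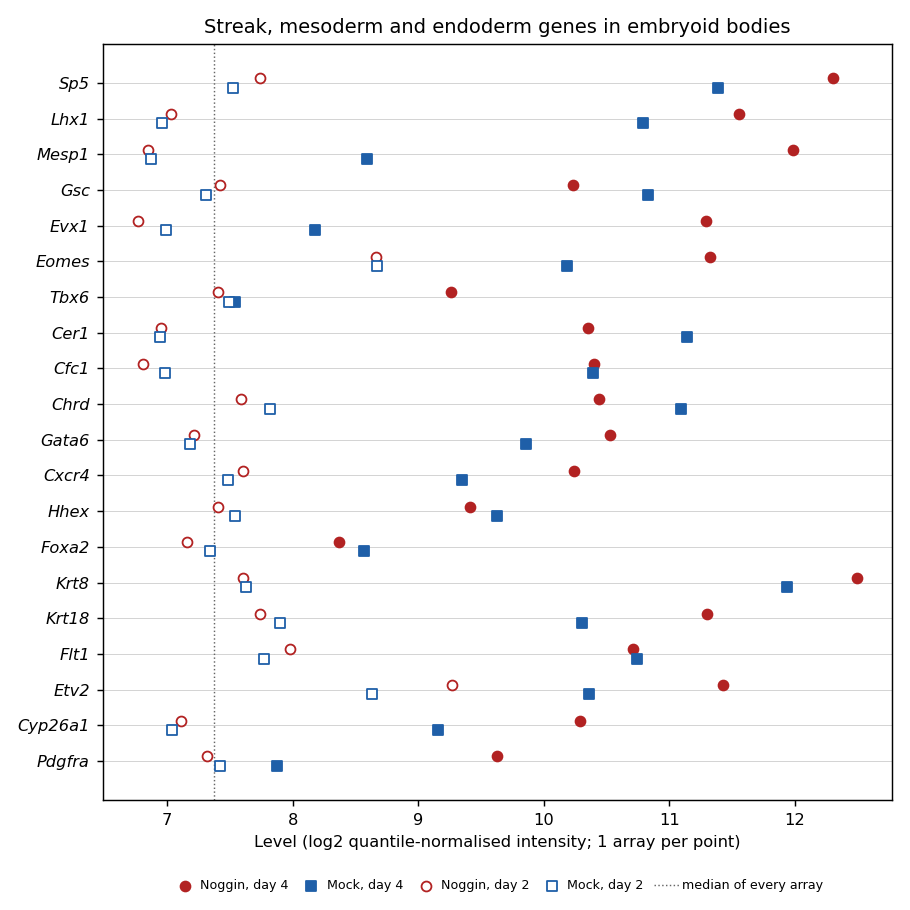
Levels of streak, mesoderm, endoderm and keratin genes on the 4 arrays, as log2 quantile-normalised intensity on the horizontal axis. Filled symbols are day 4 and open symbols day 2, with red circles for Noggin and blue squares for mock, and the dotted line is the array median of 7.37. Filled symbols lie right of open symbols of the same colour for every gene shown, but for Tbx6 with mock they nearly coincide at 7.54 and 7.49.

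Genes of the Nodal pathway had changes of both signs, also among its inhibitors. The secreted antagonist gene Cer1, an early marker of anterior endoderm, encodes an inhibitor of Nodal and BMP ligands. It stood at 10.35 with Noggin and 11.14 with mock at day 4, against 6.95 and 6.94 at day 2. Both day 2 values lay at the floor, and the changes were 3.40 and 4.20. Cfc1, which encodes the Nodal co-receptor Cryptic, had nearly equal changes of 3.59 with Noggin and 3.41 with mock, from levels of 10.40 and 10.39 at day 4 against 6.81 and 6.98 at day 2. The other co-receptor gene, Tdgf1, stood at 11.75 and 11.85 at day 4, against 11.77 on both day 2 arrays, and its mean change was 0.03 (SE 0.0990).

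The ligand Nodal and its feedback inhibitors were lower at day 4 in both treatments. Lefty1, an inhibitor of Nodal, stood at 7.93 with Noggin and 9.87 with mock at day 4, against 11.99 and 11.91 at day 2, changes of -4.06 and -2.04. Lefty2 changed by -1.98 and -1.12, Nodal by -1.69 and -1.22, and Gdf1, a ligand that acts with Nodal, by -1.03 and -1.42. Gdf3, a related ligand of pluripotent cells, stood at 8.21 with Noggin and 10.08 with mock at day 4, against 10.91 and 11.06 at day 2, and its mock change of -0.98 lay just outside 2-fold. The limma adjusted p-values were 0.106 for Lefty1, 0.1 for Lefty2, 0.0963 for Nodal, 0.0963 for Gdf1 and 0.135 for Gdf3 rounded, and 0.0362, 0.0331, 0.0244, 0.027 and 0.0612 unrounded. Smad3, a transducer of Nodal signals, had changes of 1.28 with Noggin and 0.53 with mock (unrounded limma adjusted p = 0.0647). Of 17 Nodal genes with a probe, 2 were at least 2-fold higher and 4 at least 2-fold lower in both treatments, beside 1.17% and 0.494% of all genes, and the median changes were 0.01 and -0.02.

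All 15 definitive and anterior endoderm genes with a probe had changes above 0 in both treatments. Each of the 15 was above the filter, 5 of them only through the day 4 arrays. At least 2-fold in both treatments were 8, namely Cer1, Gsc, Gata6, Cxcr4, Hhex, Foxa3, Foxa2 and Cldn6, beside 1.17% of all genes, and 0 were lower. The median change was 1.33 with Noggin and 1.01 with mock. Some of the 8 also stand on other lists used here, as Gsc does among streak genes and Cldn6 among epithelial and epiblast genes. Hhex, a homeobox gene of anterior endoderm and blood precursors, stood at 9.41 with Noggin and 9.63 with mock at day 4, against 7.40 and 7.54 at day 2 (changes 2.01 and 2.09, limma adjusted p = 0.0963 rounded and 0.0125 unrounded). Foxa2, a forkhead gene of endoderm and the organiser, stood at 8.37 and 8.57 at day 4, against 7.16 and 7.34 at day 2. The changes of both genes were nearly the same in the 2 treatments. Gata6, a zinc-finger gene of endoderm and heart, stood at 10.53 and 9.86 at day 4, against 7.21 and 7.18 at day 2, and Cxcr4, a chemokine receptor gene of endoderm and mesoderm, at 10.24 and 9.35, against 7.60 and 7.48. Gata4 had changes of 1.72 with Noggin and 0.73 with mock. Members with small changes were Otx2, an anterior and epiblast factor gene, at 0.12 and 0.58, and Hnf4a, a later endoderm factor gene, at 0.37 and 0.25. Probes for Sox17 were not analysed here.

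In the genes listed as extraembryonic endoderm the increase was smaller and less common than in those listed as definitive and anterior endoderm. Of 20 listed, 16 had a probe. Among these, 10 had changes above 0 with Noggin and 13 with mock, with medians of 0.20 and 0.21. Over all genes with a probe the medians were 0.01 and -0.02. At least 2-fold higher in both treatments were 2, beside 1.17% of all genes. These were the basement membrane collagen genes Col4a2, with changes of 2.98 with Noggin and 1.36 with mock, and Col4a1, with 2.69 and 1.28. Afp, a secreted protein of visceral endoderm, lay below the array median on all 4 arrays, at 7.22 and 7.26 at day 4, against 6.95 and 6.96 at day 2. Lrp2, an endocytic receptor gene, had changes of -1.53 and -0.65.

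Simple epithelial keratins rank beside the streak genes in size. Krt8, a type II keratin of simple epithelia, stood at 12.49 with Noggin and 11.94 with mock at day 4, against 7.60 and 7.63 at day 2, which is 29.7-fold and 19.8-fold (mean 4.60, SE 0.186, limma adjusted p = 0.0963 rounded and 0.00997 unrounded). A second Krt8 probe stayed below the median on all 4 arrays. Its partner Krt18 stood at 11.30 and 10.30 at day 4, against 7.74 and 7.90 at day 2, and Krt7 at 9.49 and 9.93, against 7.65 and 7.45. Among the claudins, tight junction proteins, Cldn6 had changes of 1.33 and 1.01 and Cldn7 of 1.43 and 0.93. Cdh1, which encodes E-cadherin, stood at 11.48 and 11.21 at day 4, against 11.31 and 11.30 at day 2, so its level differed little. Of 10 epithelial genes with a probe, 4 were at least 2-fold higher in both treatments, beside 1.17% of all genes. In the list of genes of epithelial-mesenchymal transition, 1 of 12 was, namely Lhfp with 2.82 and 1.28. Cdh2, which encodes N-cadherin, had changes of 0.86 and 0.47, and Fn1, which encodes fibronectin, 1.14 with Noggin and -0.43 with mock.

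**Figure D3:**
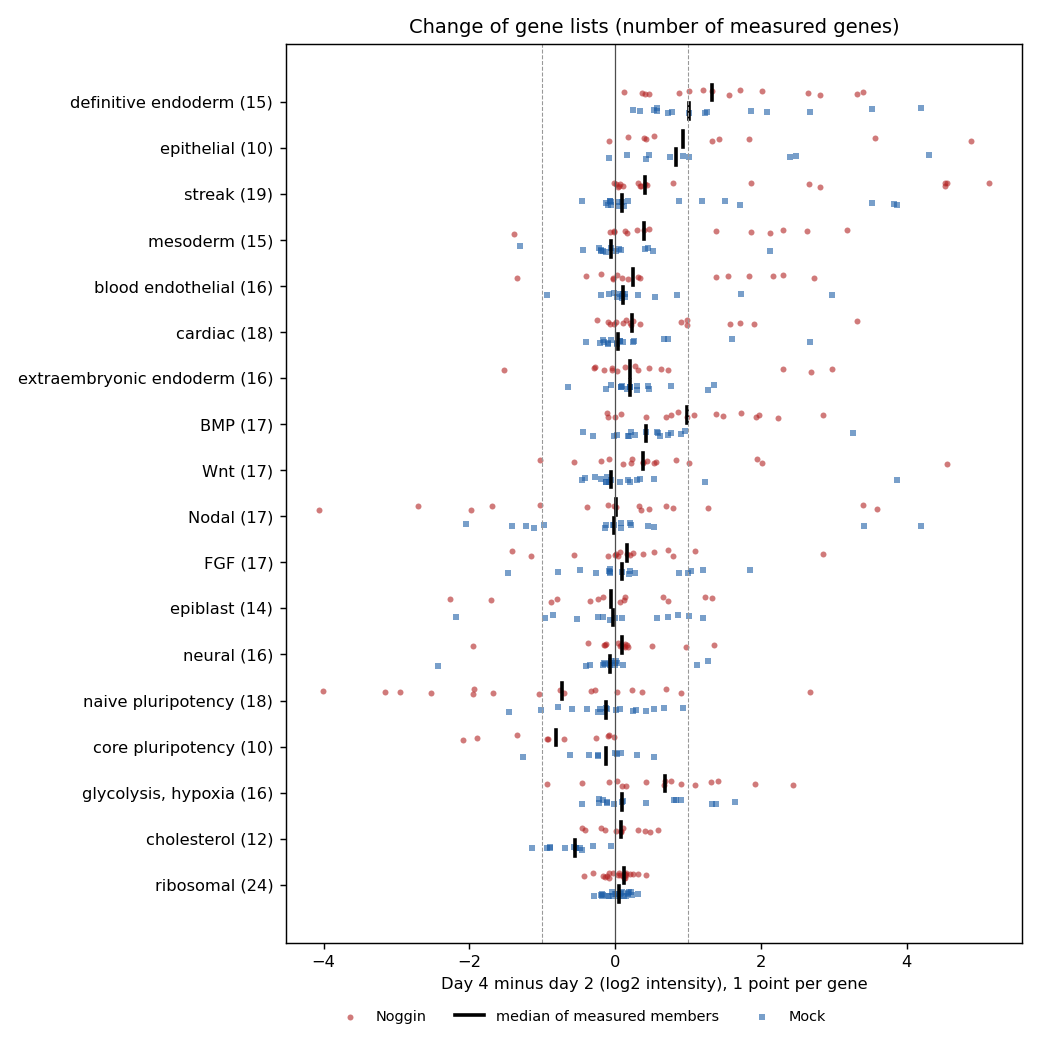
Change between day 2 and day 4 of every measured member of 18 gene lists, as log2 intensity at day 4 minus day 2 on the horizontal axis. Red circles are Noggin and blue squares mock, 1 point per gene, black bars are medians and dashed lines mark 2-fold. The definitive endoderm medians are 1.33 and 1.01 with all points right of 0, while the naive pluripotency points reach to -4.01 with Noggin and to -1.46 with mock.

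Of 15 paraxial, intermediate and lateral mesoderm genes with a probe, 6 were at least 2-fold higher with Noggin and 1 with mock. Of all genes, 2.81% and 1.63% were. In each treatment 1 was lower, beside 1.68% and 0.653% of all genes. The gene higher in both was Cyp26a1, which encodes an enzyme that degrades retinoic acid. Its levels were 10.29 with Noggin and 9.16 with mock at day 4, against 7.11 and 7.04 at day 2. Pdgfra, a receptor gene of paraxial mesoderm and primitive endoderm, stood at 9.63 with Noggin and 7.87 with mock at day 4, against 7.32 and 7.42 at day 2. Dll3, a Notch ligand gene of presomitic mesoderm, had changes of 2.12 and 0.41. Foxc2, a forkhead gene of paraxial mesoderm, was above the array median on 1 array only and was not tested, at 9.60 with Noggin and 7.35 with mock at day 4, against 6.97 and 6.83 at day 2. Tcf15, a basic helix-loop-helix gene of somites and of primed epiblast cells, was lower in both, by -1.39 and -1.30 (limma adjusted p = 0.0963 rounded and 0.0198 unrounded). Over the 15 genes the median change was 0.39 with Noggin and -0.06 with mock.

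Blood and endothelial precursor genes held members of both kinds. Flt1, a receptor gene for vascular endothelial growth factor, stood at 10.71 with Noggin and 10.74 with mock at day 4, against 7.98 and 7.77 at day 2 (SE 0.116, limma adjusted p = 0.0963 rounded and 0.00997 unrounded). Etv2, an Ets gene required for both lineages, stood at 11.43 and 10.36 at day 4, against 9.27 and 8.63 at day 2, so it was above the floor at day 2 already. These were the only 2 of 16 that were at least 2-fold higher in both treatments, beside 1.17% of all genes. With Noggin 6 were and with mock 2, beside 2.81% and 1.63% of all genes. Aplnr, Lmo2 and Tal1 had changes of 2.30, 1.84 and 1.39 with Noggin and of 0.55, 0.85 and 0.14 with mock. Markers of later blood and vessel cells lay near the floor, with Cdh5, Gata1, Hbb-bh1 and Hba-x between 6.91 and 7.31 on the 4 arrays. Pecam1, an adhesion molecule gene of endothelium that stem cells also express, was lower, by -1.34 and -0.93.

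Of 18 cardiac genes with a probe, 7 passed the filter, 4 of those only through day 4. At least 2-fold higher in both treatments were 2, beside 1.17% of all genes. With Noggin 4 were higher and with mock 2, where 2.81% and 1.63% of all genes were. The shared ones were Gata6, given above, and Actc1, the cardiac alpha-actin gene, at 9.58 with Noggin and 9.32 with mock at day 4, against 8.01 and 7.72 at day 2. Its changes of 1.57 and 1.60 were matched by 1.27 and 1.24 at the second probe (limma adjusted p = 0.0963 rounded and 0.0168 unrounded). Myl7, an atrial myosin light chain gene, stood at 9.09 with Noggin and 7.83 with mock at day 4, against 7.19 and 7.16 at day 2. The cardiac transcription factor gene Nkx2-5 stood at 7.43 and 7.32 at day 4, against 7.28 and 7.29 at day 2, and Tnnt2, Myh6 and Tbx5 were below the median on all 4 arrays. The median change was 0.23 with Noggin and 0.04 with mock. None of 16 Hox genes with a probe reached 2-fold in either treatment. Of all genes, 2.81% were higher and 1.68% lower with Noggin, and 1.63% and 0.653% with mock, so the Hox count is close to these shares. Only 5 of the 16 passed the filter. The largest Hox change was that of Hoxb2 with 0.72 with Noggin and -0.22 with mock.

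Among Wnt genes, Sp5 was accompanied in both treatments by Sfrp1, which encodes a secreted Wnt-binding protein, with changes of 1.94 with Noggin and 1.24 with mock (limma adjusted p = 0.0976 rounded and 0.0277 unrounded). These were the 2 of 17 members with a probe that were at least 2-fold higher in both, beside 1.17% of all genes. The feedback target Axin2 had changes of 0.56 and 0.20, from levels of 7.83 and 7.46 at day 4 against 7.27 and 7.26 at day 2, and the Wnt inhibitor genes Dkk1 and Apcdd1 had 1.02 and 2.01 with Noggin and 0.54 and 0.34 with mock. The list's median was 0.38 with Noggin and -0.06 with mock.

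BMP genes include the targets of the signal that Noggin blocks, and Noggin was withdrawn on the second day. Chrd, which encodes the BMP antagonist chordin of the organiser, stood at 10.44 with Noggin and 11.09 with mock at day 4, against 7.59 and 7.82 at day 2 (mean 3.06, SE 0.15, limma adjusted p = 0.0963 rounded and 0.00997 unrounded). It was the only 1 of 17 BMP genes with a probe that was at least 2-fold higher in both, beside 1.17% of all genes. With Noggin 8 of the 17 were, beside 2.81% of all genes, the BMP targets Id1, Id3, Msx1, Hey1 and Smad6, the transducer Smad1, the ligand Bmp4, and Chrd. Id1, an inhibitor of basic helix-loop-helix factors, stood at 10.83 with Noggin and 10.21 with mock at day 4, against 8.90 and 9.31 at day 2. Bmp4 stood at 8.97 with Noggin and 7.60 with mock at day 4, against 7.59 and 8.04 at day 2, so its changes had opposite signs. Id2 had changes of 0.08 and -0.01. The list's median change was 0.99 with Noggin and 0.42 with mock, both above those of all genes.

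FGF genes split by member. Fgf10 had changes of 2.85 with Noggin and 1.04 with mock, and the mock value lay just inside 2-fold. Dusp4, a phosphatase gene induced by FGF signalling through the ERK kinases, had 1.09 and 1.85, and its 2 compared probes differed in the split, the second one giving 2.28 in each treatment. Fgf5, a ligand of post-implantation epiblast, had 0.73 and 1.21. Fgf15 was lower in both, by -1.16 and -1.47, and Etv5, a target of FGF signalling that naive cells also express, by -1.42 and -0.79.

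Of 18 naive pluripotency genes with a probe, 8 were at least 2-fold lower with Noggin and 2 with mock, where 1.68% and 0.653% of all genes were. The 2 with mock, Dnmt3l and Dppa2, were also among the 8. Dnmt3l, a cofactor of DNA methylation, stood at 8.07 with Noggin and 11.37 with mock at day 4, against 12.08 and 12.39 at day 2, and its mock change of -1.02 lay just inside 2-fold. Dppa2 stood at 7.50 and 9.31 at day 4, against 10.66 and 10.77 at day 2. The median change of the 18 was -0.72 with Noggin and -0.12 with mock, beside 0.01 and -0.02 over all genes with a probe. The lower change was that with Noggin for 13 of them, but the share of all genes with that order was not counted.

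Several transcription factor genes of the naive network were lower at day 4 with Noggin, with smaller or opposite changes with mock. Esrrb stood at 7.88 with Noggin and 11.06 with mock at day 4, against 10.41 and 11.19 at day 2. Zfp42 stood at 7.99 and 10.87 at day 4, against 9.94 and 10.59 at day 2, so it was slightly higher at day 4 with mock. Klf2 had changes of -1.93 and -0.38, Nr5a2 of -1.68 and -0.79 and Tfcp2l1 of -1.05 and 0.42. Nanog stood at 11.07 with Noggin and 12.28 with mock at day 4, against 11.77 and 11.74 at day 2, and 2 further Nanog probes showed the same opposite signs. Klf5 was higher at day 4 in both, by 0.70 and 0.93. Tbx3, a factor gene of naive cells that mesoderm and endoderm also use, stood at 10.38 with Noggin and 8.27 with mock at day 4, against 7.71 and 8.26 at day 2.

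Core pluripotency genes also had the lower changes with Noggin. L1td1, an RNA-binding protein gene of pluripotent cells, had -2.09 with Noggin and -0.62 with mock. Pou5f1 had changes of -0.92 with Noggin and -0.24 with mock, with -1.14 and -0.46 at its second probe, and Sox2 had -1.35 and -0.24, with -1.24 and -0.61. Utf1, a chromatin factor gene of pluripotent cells, was lower in both, at 7.97 and 8.99 at day 4, against 9.87 and 10.25 at day 2 (limma adjusted p = 0.0968 rounded and 0.027 unrounded). It was the only 1 of 10 core genes with a probe that was at least 2-fold lower in both, beside 0.494% of all genes. The median of the 10 was -0.81 with Noggin and -0.12 with mock, beside 0.01 and -0.02 over all genes with a probe. All 10 had the lower change with Noggin, but the share of all genes with that order was not counted.

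**Figure D4:**
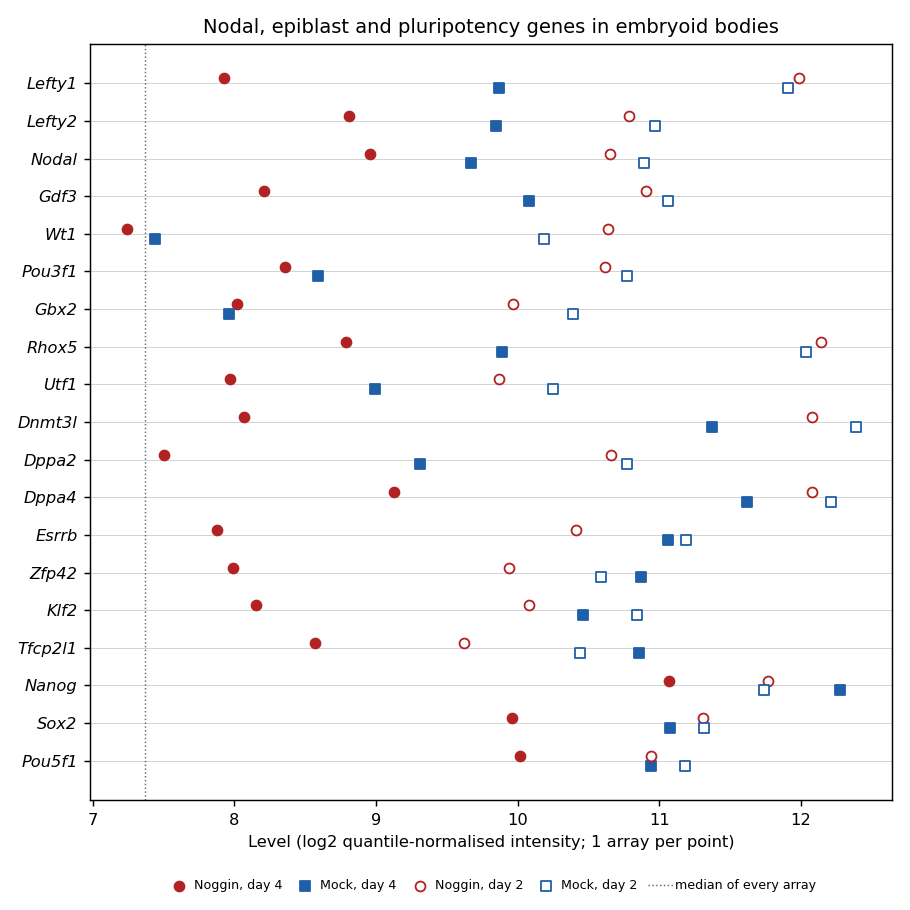
Levels of Nodal, epiblast and pluripotency genes on the 4 arrays, as log2 quantile-normalised intensity on the horizontal axis, with symbols as filled for day 4, open for day 2, red circles for Noggin and blue squares for mock, and a dotted line at the array median of 7.37. Wt1, Pou3f1 and Gbx2 have both filled symbols far to the left of both open symbols, while for Esrrb, Zfp42, Klf2 and Tfcp2l1 the Noggin day 4 symbol lies farthest to the left, at 7.88 to 8.57.

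Pou3f1, Gbx2, Wt1 and Rhox5 were more than 2-fold lower at day 4 in both treatments, by nearly the same amount for Pou3f1 and by more with Noggin for Rhox5 and Wt1. Pou3f1, a POU factor gene of the epiblast and early neural cells, stood at 8.36 with Noggin and 8.59 with mock at day 4, against 10.62 and 10.77 at day 2 (mean -2.22, SE 0.0980, limma adjusted p = 0.0963 rounded and 0.0109 unrounded). At day 0 it had stood at 7.27 on both arrays, so it was highest at day 2. Gbx2, a homeobox gene of pluripotent cells and the hindbrain, stood at 8.02 and 7.96 at day 4, against 9.97 and 10.39 at day 2. Wt1, a zinc-finger gene known for kidney and gonad development, stood at 7.24 and 7.44 at day 4, against 10.64 and 10.19 at day 2, and at 6.97 and 6.89 at day 0. Its day 2 values were thus far above both other days in both treatments (day 4 minus day 2: mean -3.08, SE 0.202, limma adjusted p = 0.0963 rounded and 0.0145 unrounded). Rhox5, a homeobox gene of germ cell support and trophoblast, stood at 8.79 and 9.89 at day 4, against 12.14 and 12.04 at day 2.

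The other genes with the largest shared decreases were Rpl39l, a paralogue of a ribosomal protein gene, with -3.27 with Noggin and -1.81 with mock, and Fam25c with -2.97 and -2.11. Ooep, which encodes a protein of the oocyte and early embryo, had -3.42 and -1.11, and the germline genes Tex19.1 and Tdrd12 had -2.51 and -2.49 with Noggin and -1.37 and -1.19 with mock. The enzyme genes Cbr3, a carbonyl reductase, and Aass, of lysine breakdown, had -2.56 and -2.26 with Noggin and -1.86 and -1.68 with mock, and Tcea3, a transcription elongation factor gene, -2.64 and -1.54. All of these were lower in both treatments, with the larger change with Noggin. Among epiblast genes, Dnmt3b, a DNA methyltransferase gene, had -0.80 and -0.52. Of 14 epiblast genes 1 was at least 2-fold higher in both treatments, Cldn6, and 1 lower, Pou3f1, beside 1.17% and 0.494% of all genes.

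Among the shared increases outside the lists of lineage genes, Spink1, which encodes a trypsin inhibitor, stood at 12.45 with Noggin and 12.26 with mock at day 4, against 7.90 and 8.47 at day 2, and at 10.49 and 10.40 at day 0. Igf2, an imprinted growth factor gene, stood at 13.38 with Noggin and 10.78 with mock at day 4, against 8.52 and 8.55 at day 2, 29-fold and 4.69-fold, and at 11.72 and 11.34 at day 0. Anxa2, a calcium-dependent membrane-binding protein gene, had changes of 3.17 and 2.21, and stood at 11.60 and 10.90 at day 4 and at 11.41 and 11.43 at day 0. The mock day 4 levels of Igf2 and Anxa2 were thus below those at day 0. The differences between treatments were largest, after Mesp1, Evx1, Tbx3 and Igf2, for Phlda2, Stard8, Ccnd2 and Pmp22 on the Noggin side. Phlda2, an imprinted growth regulator gene, had changes of 1.38 with Noggin and -1.23 with mock, and Ccnd2, which encodes cyclin D2, 1.06 and -1.40. They were the only 2 probes at least 2-fold higher in one treatment and at least 2-fold lower in the other, and a second compared Ccnd2 probe gave 1.25 and -0.97. Stard8 had 2.45 and -0.03 and Pmp22, a myelin protein gene, 2.57 and 0.20. On the other side, after Dnmt3l, stood Nupr1, a stress-induced chromatin protein gene, with -0.40 with Noggin and 2.02 with mock, then Esrrb, Dppa4 with -2.95 and -0.59, Ooep, Zfp42, Lefty1 and 2410141K09Rik with -2.10 and -0.18.

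Genes of metabolism and of culture state gave further values. Glycolysis and hypoxia genes had medians of 0.68 with Noggin and 0.10 with mock over 16 members with a probe. At least 2-fold higher in both were 3, beside 1.17% of all genes. They were the angiogenic factor gene Vegfa with 2.44 and 1.65, the glucose transporter gene Slc2a3, and Ndrg1. Slc2a3 had 1.92 and 1.33, and Ndrg1 had 1.32 and 1.39. At day 4 Vegfa stood at 10.03 with Noggin and 9.47 with mock, Slc2a3 at 13.70 and 13.40, and Ndrg1 at 8.72 and 8.94. At day 0 they had stood at 9.59 and 9.46, 13.68 and 13.72, and 8.73 and 8.60. All 3 were thus lowest at day 2 of the 3 days. Cholesterol synthesis genes had medians of 0.08 with Noggin and -0.56 with mock, beside 0.01 and -0.02 over all genes with a probe. Of these, 12 of 12 had the higher change with Noggin, but the share of all genes with that order was not counted. Fdps stood at 11.71 with Noggin and 10.64 with mock at day 4, against 11.70 and 11.78 at day 2. Chac1 and Asns, genes of the response to amino acid shortage, had changes of 1.69 and 0.27 with Noggin and of 3.20 and 1.35 with mock. Ccne1, which encodes cyclin E1, was lower in both by -1.32 and -1.35. Ribosomal protein genes had medians of 0.11 and 0.05 over 24 members, and 0 of them reached 2-fold. Of all genes, 2.81% were higher and 1.68% lower with Noggin, and 1.63% and 0.653% with mock.

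Markers of other cell types that such cultures can hold gave the following values, and their part in the results was not tested. Beside the counts below, 1.17% of all genes were at least 2-fold higher in both treatments and 0.494% lower. With Noggin 2.81% were higher and 1.68% lower. Of 16 neuroectoderm genes with a probe, 1 was at least 2-fold higher in both treatments, Hesx1, an anterior factor gene, and 1 lower, Gbx2. Nes, which encodes the intermediate filament protein nestin, had changes of 0.97 with Noggin and 1.27 with mock, while Pax6 and Zic1 lay between 6.85 and 7.41. Of 7 trophoblast genes 1 was higher in both, Krt7, and Gata3, not tested, was higher with Noggin, at 8.56 with Noggin and 7.16 with mock at day 4, against 6.83 and 6.69 at day 2. The defining genes Elf5 and Tpbpa lay between 6.89 and 7.31. The log2 summed level of the trophoblast genes was 11.10 with Noggin and 11.36 with mock at day 4, against 10.36 and 10.62 at day 2. Of 10 fibroblast and feeder genes none was at least 2-fold higher or lower in both, with log2 summed levels of 11.63 and 11.51 at day 4, against 11.39 and 11.29 at day 2, and Col1a1 between 6.99 and 7.14. With Noggin 2 of them were higher, Fbln2 with 1.53, against 0.06 with mock, and Fstl1 with 1.37, against 0.74 with mock, and 1 was lower, Dcn with -1.62, against -0.77 with mock. Of 11 germ cell genes 1 was higher, Kit, and 1 lower, Rhox5, with Ddx4 between 6.95 and 7.11 and Dazl between 7.33 and 7.42.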

How the data were processed

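RNA from stem cells and embryoid bodies of the J1 line was hybridised to Illumina Mouse-6 bead arrays, 1 array per group, per the labels. The log2 values the authors deposited as the series' value table were used as given. The deposited array tables hold unprocessed intensity, whose log2 after quantile normalisation matched the deposited log2 values, so those had no background subtracted and were rounded to 2 decimals. The software that made them is not given in the sources used here.

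Probes brighter than the median probe in 2 or more of the 4 arrays were tested in R 4.3.3 with limma 3.58.1, with day and treatment as terms and Benjamini-Hochberg adjustment over all 14268 probes. On simulated data the 4-array fit called 0 of 100 probes with a log2 change of 1 and 72 of 100 with a log2 change of 2. It also called 3 unchanged probes. On the deposited values the same fit called 0 probes, where Krt8 had a mean change of 4.60 and Sp5 of 4.22. The recovery of 72 of 100 therefore cannot be carried over to the deposited values. What the 0 calls there say about 2-fold changes was not tested. Of 27495 probes, 19420 had 1 gene symbol, 6 several and 8069 none in the platform annotation. A 2-fold change in both treatments served as the descriptive call. No detection values were used, and arrays limit the precision by their number.

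Genes were named as those with the largest changes of at least 2-fold in both treatments, those with the largest difference between treatments, and members of the gene lists. The lists and members were chosen with earlier results of these data known. Alternatives covered background correction by normexp with an offset of 50, median scaling, the filter, all 6 arrays, the treatment block and unrounded values. Promoter windows came from the RefSeq table of GRCm38.p6.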

Additional observations from a re-analysis of the deposited data

Results flagged for a closer look

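For 12 named genes the day 4 minus day 2 change was above 0 in one treatment and below 0 in the other, by at least 0.4 on the log2 scale in each. Each treatment had 1 array per day, so the difference was not tested for any of them. The change with Noggin minus that with mock was 2.61 for Phlda2, 2.46 for Ccnd2, 1.82 for Bmp4, 1.57 for Fn1, 1.31 for Hmgcs1, 1.24 for Ccnd1, 1.13 for Nsdhl, 1.08 for Cdkn1c and 0.85 for Mmp2, which were higher at day 4 with Noggin and lower with mock. It was -2.42 for Nupr1, -1.47 for Tfcp2l1 and -1.24 for Nanog, which were lower at day 4 with Noggin and higher with mock. Second compared probes of Ccnd2, Fn1 and Nanog had the same pair of signs, with 1.25 and -0.97 for Ccnd2 and 0.87 and -0.27 for Fn1. The further compared probes of Ccnd1 gave 0.10 and -0.98, 0.10 and -0.75, and -0.19 and -0.56. None of these reached 0.4 with Noggin, and the last was lower in both treatments.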

How the results depend on the processing

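The count of limma calls depended on the processing more than any other value. Against 0 higher and 0 lower probes in the planned fit, there were 876 and 625 after normexp background correction, 52 and 3 after median scaling, 356 and 213 with the filter at the 75th percentile, 1159 and 1018 with no treatment block, and 1885 and 1968 with all 6 arrays in the fit. With no filter there were again 0 and 0. Settings added after the data were seen gave 663 and 483 with unrounded values, and 468 and 309 at an adjusted p under 0.1. After rounding, 226 probes had exactly equal changes in both treatments. With 6 arrays, leaving out 1 embryoid body array gave 0 to 2174 higher and 0 to 2359 lower probes, with 0 and 0 without either day 2 array, 1157 and 991 without Noggin day 4, and 2174 and 2359 without mock day 4. The lone array left at that day is then assumed to vary like the others. The 2-fold counts were 354 higher and 174 lower in both treatments after normexp, against 207 and 85, and 55 lower after median scaling. Probes that differed by 2-fold were 1347 with Noggin and 734 with mock after normexp, against 837 and 400. Of 125 named genes tested, none turned direction under median scaling, no treatment block, unrounded values, no filter or the 6-array fit, nor did the 97 of them left by the 75th percentile filter. After normexp, 1 did, Mmp2, at -0.01. Leaving out an array turned some of those whose treatments disagreed or whose change was near 0. Without Noggin day 4 the change was -0.35 for Bmp4, -0.44 for Cdkn1c, -0.32 for Mmp2, -0.52 for Nsdhl, -0.08 for Cdh1, 0.06 for Esrrb, -0.39 for Fn1, -0.19 for Hoxb2, 0.57 for Nanog, -1.14 for Phlda2, 0.65 for Tfcp2l1 and 0.45 for Zfp42. Without Noggin day 2 it was -0.07 for Bmp4, -0.25 for Cdkn1c, -0.31 for Mmp2, -0.28 for Nsdhl, -0.04 for Cdh1, -0.07 for Fn1, -0.01 for Hoxb2, -0.05 for Id2, 0.20 for Nanog and -0.67 for Phlda2. Without mock day 4 it was 0.94 for Ccnd2, 0.36 for Ccnd1, 0.41 for Hmgcs1, -0.02 for Cdx4, -0.40 for Nupr1 and -0.05 for Tdgf1, and without mock day 2 it was 0.57 for Ccnd2, 0.17 for Ccnd1 and 0.08 for Hmgcs1. The cause was not tested. No paired analysis was possible because the labels give no replicate numbers, beyond the pairing of days by treatment in the planned fit. Signal near the floor limits the folds of dim genes.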
